A study of Mus musculus with 20 samples.

Results

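The genes described here are the 3 transforming growth factor beta (TGF-beta) ligand genes Tgfb1, Tgfb2 and Tgfb3, the receptor genes Tgfbr1, Tgfbr2 and Tgfbr3, the signal transducer genes Smad3 and Smad7, and Tgfbi, which encodes a TGF-beta-induced matrix protein. They were taken by gene symbol, 9 of the 23799 genes in the deposited table, and no member symbol was repeated. All 9 were among the 15875 genes with at least 0.5 FPKM (fragments scaled to transcript length and library size) in at least 5 libraries, which were the genes tested. The libraries are poly-A RNA from whole lungs of Sprague Dawley rats, an outbred stock, and the series title names sex differences after acute lung injury by bleomycin, a drug that breaks DNA strands. There were 5 bleomycin females, 5 sham females, 5 bleomycin males and 5 sham males, each library from its own animal, in a cohort that the labels call BW-matched. No genetic change is labelled in any group. Age, dose, route of delivery and the interval before the lungs were taken are not given in the sources used here. Although the organism field reads mouse, the stock, the design text and the identifiers in the table point to rat, and rat is assumed here.

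TGF-beta ligands are secreted in a latent form, held in the matrix by latent TGF-beta binding proteins and released by integrins, thrombospondin and proteases. The active ligand binds the type II receptor (Tgfbr2), which recruits and phosphorylates the type I receptor (Tgfbr1), and this kinase activates Smad2 and Smad3, which enter the nucleus with Smad4 and switch on genes such as those of collagens. Betaglycan (Tgfbr3) is a co-receptor that presents ligand, Tgfb2 above all, and Smad7 is an inhibitor induced by the pathway itself. In injured lung the pathway is known for turning fibroblasts into contractile, matrix-secreting myofibroblasts.

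Library totals were 68.6 to 87.5 M counts (M for mega), and single members held 1448 to 70153 counts per library, so none was near the limit of detection. Bleomycin males were the most spread group, with a median standard deviation (SD) of log2 CPM (counts scaled to library size) of 0.376 over all tested genes, against 0.218 in bleomycin females, 0.212 in sham males and 0.165 in sham females. For the 9 members alone these medians were 0.390, 0.254, 0.115 and 0.176. Mitochondrial transcripts took 4.43 to 5.61% of counts in bleomycin females, 5.60 to 7.41% in sham females, 5.43 to 9.56% in bleomycin males and 4.42 to 7.63% in sham males. Alveolar type 2 cell genes (5 genes, among them the surfactant gene Sftpc) summed to 9050 to 15053 FPKM in bleomycin females and 13885 to 17331 in sham females, and to 3354 to 13270 in bleomycin males and 11731 to 15080 in sham males. The 5 alveolar type 1 cell genes summed to 1429 to 1970 FPKM in bleomycin females and 1919 to 2552 in sham females, and to 384 to 1517 in bleomycin males and 1691 to 2319 in sham males. Of the type 1 genes 1 fell in females and 3 in males, and of the type 2 genes none and 2, beside 8.38% and 19.3% of all tested genes. The part of these epithelial genes in the falls of Tgfbr3, Smad3 and Smad7 was not tested. Transcripts of liver, skeletal muscle, fat or heart atrium reached 50 FPKM in 5 libraries, sham males 3 and 5, bleomycin males 2 and 5 and sham female 1. Because the mitochondrial percent differed between groups, a fit with it as a covariate cannot fully tell it apart from the group. A fit without the 5 libraries has fewer males in both groups, so it has less power to make a call. It leaves out bleomycin males 2 and 5, which had the highest mitochondrial percents (9.56 and 9.35%) of all libraries. They also had the lowest type 1 sums (384 and 557 FPKM). This fit and the one with the covariate are therefore not separate checks. In whole lung, fewer cells of a type and less RNA per cell cannot be told apart.

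In this text a log2 fold change is followed by its standard error, a mean FPKM by its SD (n = 5 per group), and adjusted p-values are those of edgeR's quasi-likelihood test with Benjamini-Hochberg adjustment over all 15875 genes, two-sided, called past the threshold when under 0.05. The 4 group means were fitted in 1 model that shares an estimate of the spread over all 20 libraries. Because FPKM is scaled to transcript length, levels of different genes are compared only in FPKM. Values are listed in replicate order, 1 to 5.

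In sham lungs the type II receptor was the most abundant member and the ligand Tgfb1 came next. Tgfbr2 averaged 111.97 ± 6.48 FPKM in sham females and 107 ± 13.5 in sham males, and Tgfb1 averaged 34.9 ± 0.904 and 35.9 ± 2.54 in the same order. Tgfbr3, Smad7, Tgfbr1 and Tgfb2 followed in both sexes, from 23.5 ± 1.59 to 11.2 ± 2.14 FPKM in sham females and from 25.7 ± 2.55 to 11.7 ± 0.993 in sham males. Tgfb3, Tgfbi and Smad3 were the lowest, between 7.27 ± 1.23 and 10.7 ± 1.46 FPKM. Neighbours in this order whose means differed by less than the larger SD of the pair were Smad7 and Tgfbr1 and then Smad3 and Tgfb3 in sham females, and Tgfbr1, Tgfb2, Tgfb3 and Tgfbi, each with the next, in sham males. In bleomycin lungs Tgfbr2 and Tgfb1 again had the highest means and Smad3 the lowest in both sexes. Tgfb3 ranked 3 in bleomycin females, against 9 in sham females, and Tgfbi ranked 3 in bleomycin males, against 8 in sham males. From Tgfb3 to Tgfbi (ranks 3 to 8) in bleomycin females, and between Tgfbi and Tgfb3 and from Tgfbr1 to Smad7 (ranks 5 to 7) in bleomycin males, neighbours again differed by less than the larger SD.

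**Figure D1:**
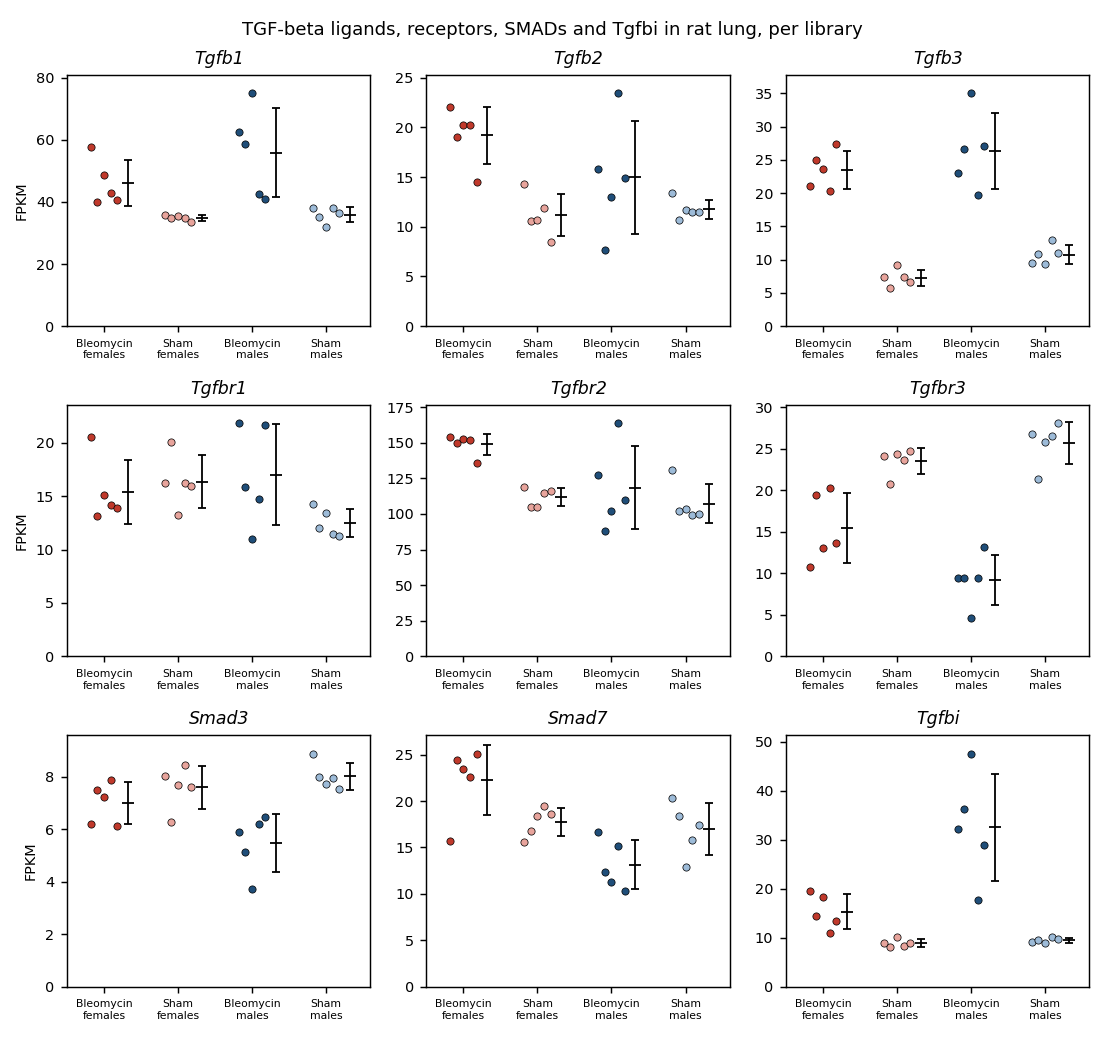
FPKM of the 9 members in each of the 20 libraries, with 1 panel per gene, all vertical axes starting at 0, points in replicate order and the mean with its SD (n = 5) as a bar beside each group. Tgfb3 and Tgfbi lie above their sham libraries in all bleomycin libraries of both sexes, and Tgfbr3 lies below them.

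The transcripts of all ligands stood higher in bleomycin lungs on average, with Tgfb3 the most changed of the 3 in both sexes. In females 4 of the 9 members passed the threshold (21.6% of all tested genes did), Tgfb2, Tgfb3 and Tgfbi upward (13.2% of all genes) and Tgfbr3 downward (8.38%). In males 7 of 9 passed (41.9% of all genes), Tgfb1, Tgfb3, Tgfbr1 and Tgfbi upward (22.6%) and Tgfbr3, Smad3 and Smad7 downward (19.3%). The order of the sexes in these counts depended on the shared spread. With only the groups compared fitted, 6 members and 5381 genes passed in females, and 5 members and 4463 genes in males. Where each group was weighted by its own spread, 6 members and 5854 genes passed in females, and 5 members and 4978 genes in males. Where the log2 fold change also had to reach 1 in size, as the authors asked, 1 member was left in females (Tgfb3, 7.00% of all genes) and 3 in males (Tgfb3, Tgfbr3 and Tgfbi, 12.7%). The FPKM ranges of bleomycin and sham lungs did not overlap for 6 of 9 members in females (23.7% of all genes) and for 5 of 9 in males (22.6%). The median log2 fold change of the members was 0.37 in females and 0.33 in males, beside 0.00 and 0.04 over all tested genes.

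Tgfb3 (ENSRNOG00000009867, chromosome 6, 105704236 to 105726564, minus strand, in the table's coordinates) encodes the ligand best known from palate closure and wound healing. It stood at 21.1, 24.96, 23.6, 20.3 and 27.4 FPKM in bleomycin females, against 7.34, 5.81, 9.15, 7.38 and 6.66 in sham females. Male lungs had 23.1, 26.6, 35.05, 19.8 and 27.1 FPKM with bleomycin, against 9.47, 10.9, 9.37, 12.95 and 10.98 in sham lungs. The groups did not overlap in either sex, and the lowest bleomycin library of each sex was well above the highest sham library. Tgfb3 rose by 1.66 ± 0.157 on the log2 scale in females (adjusted p = 2.7e-07) and by 1.26 ± 0.155 in males (adjusted p = 7.5e-06). Both calls held under all 34 alternative settings.

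Tgfb1 (ENSRNOG00000020652, chromosome 1, 81196532 to 81212847, plus strand) encodes the ligand made by many cells, macrophages and platelets among them. It stood at 57.8, 40.03, 48.8, 42.9 and 40.8 FPKM in bleomycin females, against 35.8, 34.7, 35.4, 34.9 and 33.5 in sham females. The male values were 62.6, 58.5, 75.03, 42.4 and 40.9 FPKM with bleomycin, against 38.1, 35.2, 31.98, 38.2 and 36.3 in sham lungs. The bleomycin libraries lay above all sham libraries of their sex, by a narrow margin in bleomycin females 2 and 5 and bleomycin males 4 and 5. Tgfb1 rose by 0.61 ± 0.153 in males (adjusted p = 0.0037), and in females its log2 fold change was 0.37 ± 0.153 (adjusted p = 0.089). The female value was past the threshold under 6 of 34 settings, with an adjusted p of 0.010 where groups were weighted by their own spread and 0.024 without bleomycin male 3. Macrophage genes summed to 262 to 662 FPKM in bleomycin males and 79.1 to 110.4 in sham males. In bleomycin females they summed to 135 to 324 FPKM, and in sham females to 104 to 124. Among bleomycin males replicate 3 was highest in this sum and in Tgfb1, and the order of the others differed. The macrophage gene Mrc1 rose in neither sex. Of the 3 platelet genes Pf4 alone rose in males, by 0.97 on the log2 scale (adjusted p = 0.016). Ppbp and Gp9 were lower there without passing, at −1.32 ± 1.18 (0.39) and −0.91 ± 0.403 (0.077). The 3 summed to 20.8 to 69.97 FPKM in bleomycin males and 16.9 to 29.3 in sham males. This sum was nearly all Pf4, which averaged 37.8 ± 18.6 FPKM in bleomycin males, against 0.24 ± 0.36 for Ppbp and 0.67 ± 0.19 for Gp9. None of them passed in females, at sums of 17.7 to 28.8 FPKM in bleomycin females and 10.7 to 24.1 in sham females. In males the 3 genes did not lie on the same side of 0, and Ppbp and Gp9 were low in FPKM. The part of macrophage or platelet genes in the Tgfb1 values was not tested. The Pf4 call was lost without bleomycin male 3.

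Tgfb2 (ENSRNOG00000002418, chromosome 13, 98160087 to 98261405, minus strand) encodes the ligand that depends most on betaglycan for binding the type II receptor. It stood at 22.01, 19.05, 20.3, 20.2 and 14.5 FPKM in bleomycin females, against 14.3, 10.5, 10.7, 11.9 and 8.497 in sham females. In males it stood at 15.8, 7.68, 13.005, 23.4 and 14.9 FPKM with bleomycin, against 13.4, 10.7, 11.6, 11.5 and 11.5 in sham lungs. The female groups did not overlap, whereas the bleomycin males enclosed the whole sham range, with bleomycin male 2 below it and bleomycin male 4 far above it. Tgfb2 rose by 0.76 ± 0.214 in females (adjusted p = 0.015), and in males its log2 fold change was 0.33 ± 0.213 (adjusted p = 0.22). With the mitochondrial percent as a covariate the female value was 0.45 (adjusted p = 0.13), and in males it was 0.49 (adjusted p = 0.033). Without bleomycin male 2 the male value was 0.51 (adjusted p = 0.021), and without the 5 libraries with transcripts of other organs it was 0.60 (adjusted p = 0.037).

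Tgfb3 made up a larger part of the ligand transcripts in bleomycin lungs of both sexes. Tgfb3 made up 26.7 ± 4.79% of the summed ligand FPKM in bleomycin females and 13.6 ± 1.90% in sham females (SD, n = 5), and 27.1 ± 4.20% in bleomycin males and 18.4 ± 1.91% in sham males. The Tgfb1 share was 51.7 ± 3.68% in bleomycin females and 65.5 ± 2.75% in sham females, and 56.9 ± 6.85% in bleomycin males and 61.5 ± 0.835% in sham males. The ranges of the Tgfb3 share did not overlap between bleomycin and sham libraries of either sex, at 20.9 to 33.2% and 11.4 to 16.6% in females and at 22.7 to 32.7% and 15.5 to 20.7% in males. The Tgfb2 share averaged 21.6 ± 2.51% in bleomycin females and 20.9 ± 2.81% in sham females, and 15.9 ± 7.45% in bleomycin males and 20.1 ± 1.72% in sham males. Summed, the ligand transcripts reached 88.7 ± 7.89 FPKM in bleomycin females and 53.3 ± 3.51 in sham females, and 97.2 ± 16.2 in bleomycin males and 58.4 ± 3.75 in sham males. These shares are descriptions of transcripts and were not tested.

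**Figure D2:**
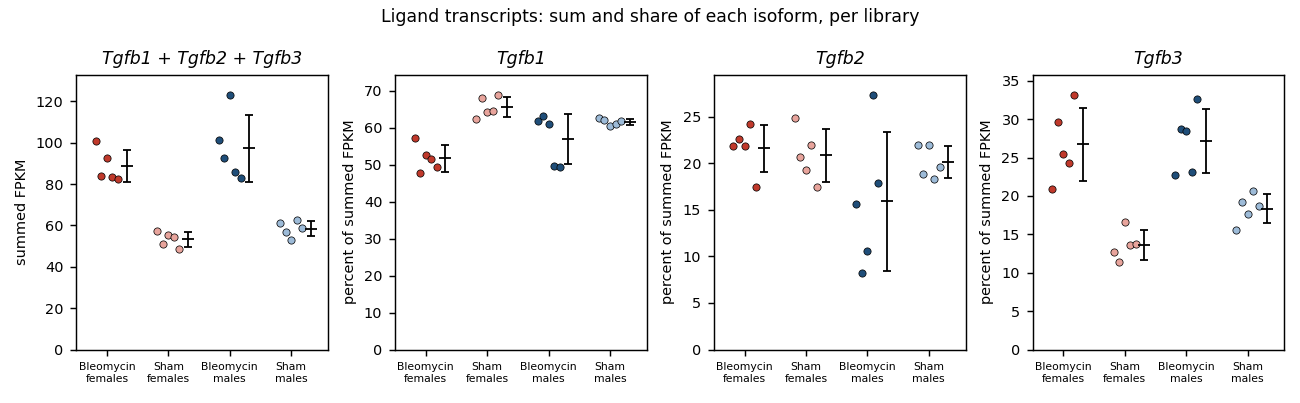
Summed FPKM of Tgfb1, Tgfb2 and Tgfb3 (first panel) and the percent of that sum held by each gene (other panels), 1 point per library, with the mean and SD of each group (n = 5). The Tgfb3 share lies at 20.9% or more in all bleomycin libraries and at 20.7% or less in all sham libraries.

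The co-receptor Tgfbr3 fell in both sexes, while the log2 fold changes of the signalling receptors Tgfbr1 and Tgfbr2 were 0.40 or smaller in size in both sexes. Tgfbr3 (ENSRNOG00000002093, chromosome 14, 2489397 to 2663341, plus strand) stood at 10.7, 19.4, 13.04, 20.3 and 13.7 FPKM in bleomycin females, against 24.1, 20.8, 24.4, 23.7 and 24.7 in sham females. Male lungs had 9.41, 9.41, 4.64, 9.45 and 13.2 FPKM with bleomycin, against 26.8, 21.4, 25.8, 26.6 and 28.1 in sham lungs. The groups did not overlap in either sex, but bleomycin females 2 and 4 were close to the lowest sham female. Tgfbr3 fell by 1.54 ± 0.196 on the log2 scale in males (adjusted p = 1.1e-05, past the threshold under all 34 settings) and by 0.64 ± 0.192 in females (adjusted p = 0.022). The female call was lost with the mitochondrial percent as a covariate (adjusted p = 0.12), and it was lost without sham female 5 or without bleomycin female 1, 3 or 5, with adjusted p-values of 0.053 to 0.063 and log2 fold changes of −0.60 to −0.54. The 5 endothelial markers Pecam1, Cdh5, Kdr, Tek and Emcn summed to 366 to 523 FPKM in bleomycin females and 397 to 449 in sham females, and to 211 to 401 in bleomycin males and 388 to 593 in sham males. Of these markers 1 rose and 1 fell in females (13.2% and 8.38% of all genes did). In males none rose and 3 fell, Cdh5, Kdr and Tek (22.6% and 19.3% of all genes rose and fell). Emcn went the other way, with a rise of 1.01 ± 0.178 in females (adjusted p = 0.00039) and 0.40 ± 0.177 in males (0.079, not past the threshold). Within bleomycin males the order differed, as replicate 5 had the lowest endothelial sum (211) and the highest Tgfbr3 (13.2). The part of endothelial content in the fall of Tgfbr3 was not tested.

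Tgfbr1 (ENSRNOG00000007036, chromosome 5, 61653233 to 61710777, plus strand) encodes the type I receptor kinase. It stood at 20.6, 13.1, 15.1, 14.2 and 13.9 FPKM in bleomycin females, against 16.2, 20.1, 13.3, 16.3 and 15.95 in sham females. The male values were 21.8, 15.9, 10.9, 14.7 and 21.7 FPKM with bleomycin, against 14.3, 12.1, 13.4, 11.5 and 11.3 in sham lungs. Both pairs of groups overlapped, and bleomycin males 1 and 5 carried most of the male difference while bleomycin male 3 lay below every sham male. The log2 fold change was −0.12 ± 0.152 in females (adjusted p = 0.63, 95% interval −0.44 to 0.20). Tgfbr1 rose by 0.40 ± 0.153 in males (adjusted p = 0.043), a call lost under 14 of 34 settings. It was lost without sham male 2, 4 or 5, without bleomycin male 1 or 5 and without bleomycin female 3, with adjusted p-values of 0.051 to 0.13, and it stood at adjusted p = 0.20 without the 5 libraries with transcripts of other organs.

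Tgfbr2 (ENSRNOG00000013265, chromosome 8, 115794537 to 115883228, minus strand) encodes the type II receptor kinase, which binds the ligand. It stood at 154, 149.8, 153, 152 and 136 FPKM in bleomycin females, against 119, 105, 105, 115 and 116 in sham females. In males it stood at 128, 87.95, 102, 164 and 109.9 FPKM with bleomycin, against 131, 102, 104, 99.4 and 99.95 in sham lungs. The female groups were apart, while the bleomycin males ranged on both sides of the sham males. The log2 fold change was 0.38 ± 0.140 in females (adjusted p = 0.058), short of the threshold, and 0.12 ± 0.140 in males (adjusted p = 0.52, 95% interval −0.17 to 0.41). The female value passed under 13 of 34 settings, among them without bleomycin male 2 (adjusted p = 0.026), without bleomycin male 4 (0.010) and without bleomycin female 5 (0.0496). With the mitochondrial percent as a covariate it was 0.16 (adjusted p = 0.41). The FPKM ratio of Tgfbr1 to Tgfbr2 was 0.103 ± 0.0177 in bleomycin females and 0.147 ± 0.0257 in sham females, and 0.149 ± 0.0475 in bleomycin males and 0.117 ± 0.00770 in sham males.

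**Figure D3:**
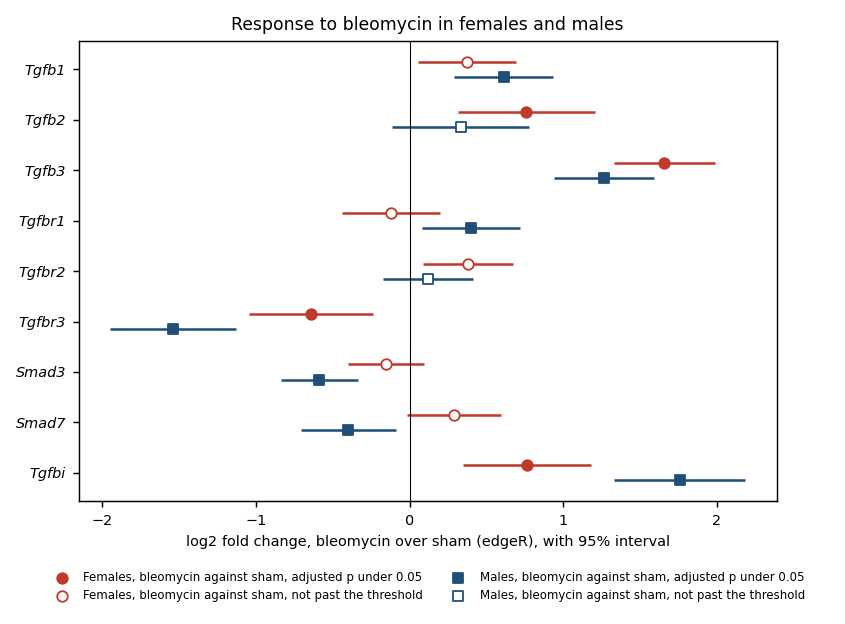
Log2 fold changes of bleomycin over sham for the 9 members in females (circles) and males (squares), with 95% intervals derived from edgeR's F statistic, filled where the adjusted p was under 0.05. Tgfb3 and Tgfbi are filled on the right and Tgfbr3 on the left in both sexes, and Smad7 lies on the right in females and on the left in males.

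Of the transducers, Smad3 fell in males, and Smad7 lay on opposite sides of 0 in the 2 sexes. Smad3 (ENSRNOG00000008620, chromosome 8, 64110039 to 64236960, minus strand), the activator, stood at 6.18, 7.51, 7.22, 7.88 and 6.12 FPKM in bleomycin females, against 8.01, 6.25, 7.68, 8.45 and 7.61 in sham females. Male lungs had 5.87, 5.12, 3.72, 6.21 and 6.46 FPKM with bleomycin, against 8.88, 7.99, 7.71, 7.95 and 7.51 in sham lungs. The male groups did not overlap and the female groups did. Smad3 fell by 0.59 ± 0.119 on the log2 scale in males (adjusted p = 0.00074, past the threshold under all 34 settings), and its log2 fold change in females was −0.15 ± 0.119 (adjusted p = 0.39, 95% interval −0.40 to 0.10).

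Smad7 (ENSRNOG00000018359, chromosome 18, 68988429 to 69016765, plus strand), the feedback inhibitor, stood at 15.7, 24.4, 23.4, 22.6 and 25.1 FPKM in bleomycin females, against 15.5, 16.8, 18.3, 19.4 and 18.6 in sham females. The male values were 16.7, 12.4, 11.2, 15.1 and 10.3 FPKM with bleomycin, against 20.4, 18.4, 12.9, 15.8 and 17.5 in sham lungs. Bleomycin females other than replicate 1 were above all sham females, whereas bleomycin males 2, 3 and 5 were below all sham males. The log2 fold change in females was 0.29 ± 0.147 (adjusted p = 0.17), and Smad7 fell by 0.40 ± 0.147 in males (adjusted p = 0.036). The male call was lost under 14 of 34 settings, among them without sham male 1, 2, 4 or 5 and without bleomycin male 2, 3 or 5, with adjusted p-values of 0.051 to 0.092, with the replicate number as a block (0.053) and without the 5 libraries with transcripts of other organs (0.14). The FPKM ratio of Smad7 to Smad3 was 3.20 ± 0.584 in bleomycin females and 2.35 ± 0.268 in sham females, and 2.46 ± 0.551 in bleomycin males and 2.12 ± 0.284 in sham males.

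Tgfbi (ENSRNOG00000012216, chromosome 17, 7955603 to 7985240, minus strand) encodes a secreted protein that binds collagens and integrins and is made by fibroblasts, epithelium and macrophages. It stood at 19.6, 14.4, 18.2, 10.9 and 13.3 FPKM in bleomycin females, against 8.96, 8.01, 10.03, 8.21 and 8.96 in sham females. In males it stood at 32.2, 36.2, 47.5, 17.7 and 28.8 FPKM with bleomycin, against 9.08, 9.52, 8.84, 10.1 and 9.65 in sham lungs. The groups were apart in both sexes, and 4 of the 5 bleomycin males were above every bleomycin female. Tgfbi rose by 0.76 ± 0.199 on the log2 scale in females (adjusted p = 0.0094) and by 1.76 ± 0.203 in males (adjusted p = 4.4e-06), and both calls held under all 34 settings.

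Summed macrophage transcripts were higher in the same groups as Tgfbi. The 6 macrophage genes Cd68, C1qa, C1qb, Mrc1, Cd163 and Marco summed to 135 to 324 FPKM in bleomycin females and 104 to 124 in sham females, and to 262 to 662 in bleomycin males and 79.1 to 110.4 in sham males. Of the 5 tested, 3 rose and none fell in females (13.2% and 8.38% of all genes did), and 4 rose and none fell in males (22.6% and 19.3%). Marco was below the filter. Mrc1 rose in neither sex, at −0.31 ± 0.146 in females (adjusted p = 0.14) and −0.08 ± 0.146 in males (0.68). C1qb, C1qa and Cd68 held the largest parts of the sum in bleomycin males, at 187 ± 69.2, 129 ± 48.9 and 101 ± 35.3 FPKM. The interaction term passed for 2 of the 5 tested, beside 5.69% of all genes (2.04% lower). Both had the smaller rise in females (C1qa −1.70, adjusted p = 0.0233, and C1qb −1.22, 0.0481). Both calls were lost with the mitochondrial covariate (0.118 and 0.17) and without the libraries with transcripts of other organs (0.0953 and 0.109), and C1qb passed under 13 of 33 settings. The 5 bleomycin males had the same order in this sum (428, 545, 662, 262 and 391 FPKM) as in Tgfbi. In bleomycin females replicate 1 was highest and replicate 3 second in both, at summed values of 324 and 221 FPKM, while the order of the other 3 differed. The 5 fibroblast markers Pdgfra, Pdgfrb, Dpt, Lum and Col14a1 summed to 183 to 247 FPKM in bleomycin females and 132 to 168 in sham females, and to 180 to 233 in bleomycin males and 145 to 205 in sham males. The smooth muscle markers Cnn1, Des and Myh11, which were higher in the same groups as Tgfb3, summed to 93.1 to 211 FPKM in bleomycin females and 40.8 to 51.9 in sham females, and to 133 to 210.2 in bleomycin males and 41.5 to 70.8 in sham males. All 3 rose in both sexes, beside 13.2% of all genes in females and 22.6% in males. Their part in the rise of Tgfb3 was not tested. The part of macrophage or fibroblast content in the rise of Tgfbi was not tested.

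**Figure D4:**
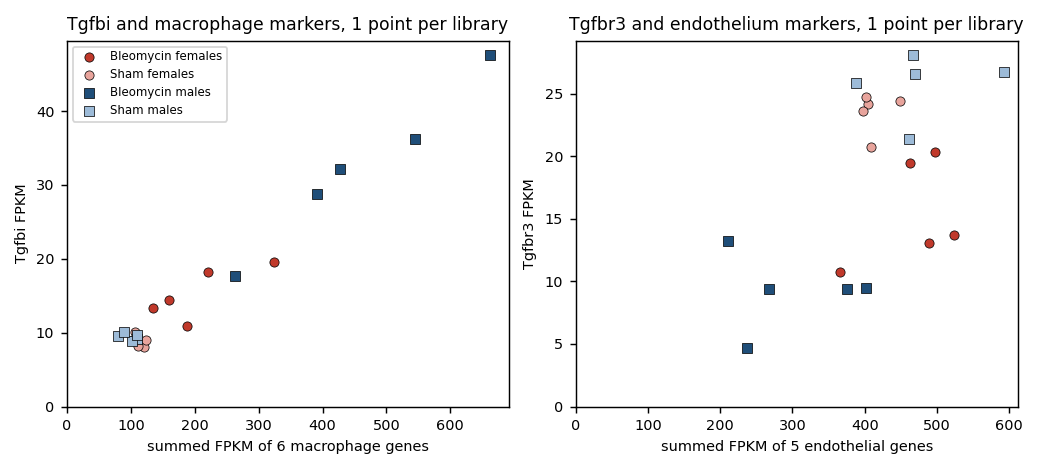
Left, Tgfbi FPKM against the summed FPKM of 6 macrophage genes. Right, Tgfbr3 FPKM against the summed FPKM of 5 endothelial genes, with 1 point per library and both axes from 0. Bleomycin male 3 has the highest Tgfbi (47.5) and the highest macrophage sum (662), and the same library has the lowest Tgfbr3 (4.64). Bleomycin male 5 has the lowest endothelial sum (211) and the highest Tgfbr3 of its group (13.2).

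The response to bleomycin was compared between females and males by the interaction term, the female log2 fold change minus the male one, in which 1 of 9 members passed (5.69% of all tested genes did), with none higher (3.65%), 1 lower (2.04%) and none with a difference of 1 or more besides (2.60%), and 5 had an unadjusted p under 0.05. Tgfbi had a difference of −0.99 ± 0.280 (adjusted p = 0.045), the female rise being smaller than the male one. The sign was negative under all 33 settings that gave a value, but the call was lost under 20 of them. It was lost without any 1 of the 20 libraries other than bleomycin males 4 and 5 and bleomycin female 1, with adjusted p-values of 0.052 to 0.085, and it stood at 0.13 with the mitochondrial percent as a covariate and 0.15 without the 5 libraries with transcripts of other organs. Smad7 and Tgfbr3 lay just short of the threshold, with differences of 0.69 ± 0.207 (adjusted p = 0.054) and 0.90 ± 0.271 (adjusted p = 0.055). Smad7 passed without bleomycin male 1 (adjusted p = 0.040), without bleomycin male 4 (0.016), without sham male 3 (0.043) and without bleomycin female 1 (0.026). Tgfbr3 passed without bleomycin male 4 (0.030), without bleomycin male 5 (0.034) and without bleomycin female 1 (0.034). With the mitochondrial covariate Smad7 was at 0.49 (adjusted p = 0.27) and Tgfbr3 at 1.12 (0.12), and without the libraries with transcripts of other organs the adjusted p-values were 0.16 and 0.14. Without bleomycin male 4, Smad3 (adjusted p = 0.037) and Tgfbr2 (0.0487) also passed, and Tgfbr1 did without bleomycin female 1 (0.047). For the ligands the differences were −0.24 ± 0.216 for Tgfb1, 0.43 ± 0.301 for Tgfb2 and 0.39 ± 0.217 for Tgfb3, with adjusted p-values of 0.51, 0.38 and 0.26. The 95% interval of the difference ran from −0.06 to 0.85 for Tgfb3 and from −0.69 to 0.21 for Tgfb1.

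Within bleomycin lungs, females and males differed in 4 of 9 members at an adjusted p under 0.05 (20.4% of all genes), with 3 higher in females (11.7%) and 1 lower (8.72%), and Tgfbi alone also reached a log2 fold change of 1 (4.28%). The comparison shares its libraries with the contrasts above, so it is no separate evidence. Smad7 averaged 22.2 ± 3.77 FPKM in bleomycin females and 13.1 ± 2.68 in bleomycin males, a log2 fold change of 0.77 ± 0.147 (adjusted p = 0.0034). Tgfbr3 averaged 15.4 ± 4.20 and 9.22 ± 3.04 FPKM in the same order (0.78 ± 0.193, adjusted p = 0.011), and Smad3 averaged 6.98 ± 0.794 and 5.48 ± 1.10 (0.37 ± 0.119, adjusted p = 0.035). Tgfbi was the one lower in females, at 15.3 ± 3.55 FPKM in bleomycin females and 32.5 ± 10.9 in bleomycin males (−1.08 ± 0.1998, adjusted p = 0.0026). No member was without overlap between the bleomycin groups (7.55% of all genes were). These calls rest on the spread shared with the sham libraries. With only the 10 bleomycin libraries fitted none passed, with adjusted p-values of 0.065 for Tgfbi, 0.063 for Smad7, 0.100 for Tgfbr3 and 0.16 for Smad3, and 29 genes passed in all. Where each group was weighted by its own spread, Tgfbi, Smad7 and Tgfbr3 passed (adjusted p = 0.0079, 0.017 and 0.042) and Smad3 did not (0.13). With the mitochondrial percent as a covariate (4.43 to 5.61% in bleomycin females and 5.43 to 9.56% in bleomycin males), none of the 9 passed, at 0.054 to 0.26 for these 4. The Smad3 call was also lost without bleomycin male 2 or 3 or without bleomycin female 2, 3 or 4 (adjusted p = 0.070 to 0.099). Without bleomycin male 4, Tgfb2 and Tgfbr2 were higher in bleomycin females than in bleomycin males (adjusted p = 0.016 and 0.0021). With the mitochondrial covariate their log2 fold changes were −0.10 and 0.0101 (adjusted p = 0.82 and 0.97).

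In sham lungs no member differed between females and males in edgeR (0.523% of all genes did, 0.113% higher and 0.409% lower in females, and 0.302% with a log2 fold change of 1 or more in size), with 2 of 9 at an unadjusted p under 0.05. DESeq2 and the fit with group weights each called 1, Tgfb3. Tgfb3 averaged 7.27 ± 1.23 FPKM in sham females and 10.7 ± 1.46 in sham males and was the only member whose sham groups did not overlap (5.08% of all genes did not). Its log2 fold change was −0.56 ± 0.154 with an adjusted p of 0.13 in edgeR, 0.029 in DESeq2 and 0.022 with group weights. It passed in edgeR without bleomycin male 3 (adjusted p = 0.033). In bleomycin lungs Tgfb3 averaged 23.5 ± 2.89 FPKM in females and 26.3 ± 5.70 in males, with a log2 fold change of −0.17 ± 0.153 (adjusted p = 0.45).

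Within the bleomycin groups the members did not all share an order of libraries, and 1 pair shared its order in both sexes. Tgfb2 and Tgfbr2 had the same rank order over the 5 bleomycin females, with replicate 1 highest and replicate 5 lowest, and the same order over the 5 bleomycin males, with replicate 4 highest and replicate 2 lowest. Tgfb1 and Tgfbr1 shared their order in bleomycin females, where replicate 1 was highest and replicate 2 lowest in both, but not in bleomycin males. Tgfbr3 and Smad3 shared theirs in bleomycin males, with replicate 5 highest and replicate 3 lowest, but not in bleomycin females. Bleomycin male 3 had the highest Tgfb1, Tgfb3 and Tgfbi of its group and the lowest Tgfbr1, Tgfbr3 and Smad3. Bleomycin male 4 had the lowest Tgfb3 and Tgfbi of its group and the highest Tgfb2 and Tgfbr2. These orders are descriptions over 5 libraries each and were not tested.

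The genes whose profile over the 20 libraries was most like that of a member were found by the root mean square difference of centred log2 CPM, among tested genes with a mean of at least 1 FPKM. For Tgfbi, whose own root mean square deviation was 0.77, the nearest were Ninj1 (0.18), Amdhd2 (0.19), Dpp7 (0.25), Ifi30 (0.25) and Ntng2 (0.26). Ninj1, which encodes a membrane protein of plasma membrane rupture, averaged 46.7 FPKM in bleomycin females and 25.3 in sham females, and 95.05 in bleomycin males and 29.4 in sham males. For Tgfb3 (0.79) they were Ppic (0.22), Rcn3 (0.25), Smtn (0.26), Pmf1 (0.26) and the smooth muscle gene Tagln (0.26). Tagln averaged 335 FPKM in bleomycin females and 106 in sham females, and 347 in bleomycin males and 127 in sham males. For Tgfbr2 (0.26) they were Nap1l1 (0.08), Pls3 (0.12), Hsd17b12 (0.13), Slc10a7 (0.13) and Rab1a (0.13), of which Nap1l1, a histone chaperone gene, averaged 143 FPKM in bleomycin females and 111 in sham females, and 107 in bleomycin males and 102 in sham males.

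The other genes of the pathway were counted in 6 lists, with 43 of 44 genes tested. The lists were chosen with earlier results of these data known, so their counts beside the background are descriptions. In females 19 rose and 2 fell, and in males 17 rose and 9 fell, with median log2 fold changes of 0.33 and 0.23, beside 0.00 and 0.04 over all tested genes. Of all tested genes 13.2% rose and 8.38% fell in females, and 22.6% rose and 19.3% fell in males, which is the background for the counts of each list. The falls in males, 9 of 43, were near that background. The gene not tested was Junb, a transcription factor gene listed at or near 0 in every library (0.109 FPKM at most).

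In the latency and activation list, the family members Ltbp2 and Ltbp3 and the activators Thbs1 and Itgav rose in both sexes. Ltbp2 is listed by its family and is not taken here as a gene of ligand storage. Of 11 latency and activation genes 6 rose and none fell in females, and 4 rose and none fell in males, beside 13.2% and 22.6% of all genes that rose. Ltbp2, a microfibril protein of the latent TGF-beta binding family, averaged 106 ± 20.1 FPKM in bleomycin females and 14.2 ± 1.58 in sham females, and 72.3 ± 34.8 in bleomycin males and 28.9 ± 6.49 in sham males. It rose by 2.87 ± 0.280 on the log2 scale in females (adjusted p = 3.8e-07) and by 1.31 ± 0.265 in males (0.00074), and the interaction was 1.57 ± 0.371 (0.026), a call lost with the mitochondrial percent as a covariate (0.157), without the 5 libraries with transcripts of other organs (0.0737) and without bleomycin female 2 or 4. Thbs1, the gene of the ligand-activating matrix protein thrombospondin, rose by 2.49 ± 0.277 in females (adjusted p = 2.1e-06) and by 1.63 ± 0.269 in males (0.00012). Ltbp3, a binding protein of the latent ligand, rose by 1.07 ± 0.135 and 0.79 ± 0.134, and the integrin chain Itgav, which takes part in ligand release, by 0.66 ± 0.138 and 0.62 ± 0.138, in females and males in that order.

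The counts of the co-receptor list and of the SMAD list stand beside 13.2% of all genes that rose and 8.38% that fell in females. In males these shares were 22.6% and 19.3%. Of 4 co-receptor genes 1 rose and none fell in females, and none rose and 2 fell in males. Eng, the endothelial co-receptor endoglin, averaged 264 ± 44.7 FPKM in bleomycin females and 186 ± 8.85 in sham females, and 114 ± 47.2 in bleomycin males and 200.1 ± 14.4 in sham males. Its log2 fold change was 0.48 ± 0.218 in females (adjusted p = 0.13), it fell by 0.82 ± 0.219 in males (0.0057), and the interaction was 1.30 ± 0.309 (0.026). Without the 5 libraries with transcripts of other organs the male fall (0.122) and the interaction (0.108) of Eng were not past the threshold, and with the mitochondrial covariate the interaction was not (0.138). Acvrl1, its partner receptor kinase, stood at −0.12 ± 0.167 in females (adjusted p = 0.645) and fell by 0.76 ± 0.168 in males (0.0015), with an interaction that did not pass (0.0987). Cd109, a surface protein that binds TGF-beta, rose by 1.57 ± 0.349 in females (adjusted p = 0.0029) and stood at 0.39 ± 0.341 in males (0.38), with an interaction that did not pass (0.13), and Bambi, a receptor without kinase, stood at −0.52 ± 0.261 and −0.38 ± 0.261 and passed in neither. Of 6 other SMAD genes none rose and 1 fell in females, and 1 rose and 4 fell in males. Smad9, a transducer of BMP signals, averaged 5.24 ± 1.17 FPKM in bleomycin females and 7.71 ± 0.793 in sham females, and 2.18 ± 0.466 in bleomycin males and 6.27 ± 1.68 in sham males. It fell by 0.59 ± 0.177 in females (adjusted p = 0.021) and by 1.56 ± 0.181 in males (4.5e-06), with an interaction of 0.96 ± 0.251 (0.036). The interaction call was lost under 14 of 33 settings, 10 of them with 1 library left out, and stood at 0.163 with the mitochondrial covariate and 0.0798 without the libraries with transcripts of other organs. The female fall was lost without sham female 5 or bleomycin female 1 or 3. Smad6, the inhibitor of BMP signals, stood at −0.48 ± 0.233 in females (adjusted p = 0.15) and fell by 1.55 ± 0.238 in males (6.5e-05), with an interaction that did not pass (0.0593). Smad4, the common partner, and Smad5 fell by 0.18 ± 0.0599 and 0.39 ± 0.116 in males and passed in males alone of the sexes, but for neither did the interaction pass (adjusted p = 0.575 and 0.546), and the Smad4 call was lost without sham male 3. Eng, Acvrl1 and Smad6 are known as endothelial genes, and the part of the lower endothelial marker sums of bleomycin males in these falls was not tested. Of those markers Emcn was not lower, at 83.2 ± 18.4 FPKM in bleomycin males and 62.3 ± 19.9 in sham males.

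Of 8 feedback genes and repressors 2 rose and 1 fell in females (13.2% and 8.38% of all genes did), and 2 rose and 3 fell in males (22.6% and 19.3%), and with so few genes these counts are not set apart from the background. Pmepa1, a target that dampens the receptor's signal, rose by 1.27 ± 0.221 in females (adjusted p = 0.00035) and by 0.59 ± 0.219 in males (0.037), the male call being lost without sham male 1, 2 or 3 or bleomycin male 3 or 4. Smurf2, a ubiquitin ligase that works with Smad7 on the receptor, stood at 0.04 ± 0.113 in females (adjusted p = 0.82) and fell by 0.54 ± 0.113 in males (0.00094), with an interaction of 0.59 ± 0.160 (0.040) that passed under 13 of 33 settings and stood at 0.202 with the mitochondrial covariate. Nedd4l, another ubiquitin ligase of the pathway, fell by 0.73 ± 0.180 in females (adjusted p = 0.0067) and by 0.72 ± 0.180 in males (0.0036). Tgif1, a repressor of SMAD-driven genes, rose by 0.65 ± 0.170 in males (adjusted p = 0.0049) and stood at 0.05 ± 0.170 in females (0.88), with an interaction that did not pass (0.118). Without the libraries with transcripts of other organs, the male calls of Nedd4l (0.15) and Tgif1 (0.129) were lost. Of the 3 ligand-binding proteoglycans, Bgn rose in both sexes, by 2.19 ± 0.2096 in females (adjusted p = 3.1e-07) and by 1.46 ± 0.205 in males (2.7e-05), while Dcn and Fmod passed in neither.

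Target genes rose in both sexes, 9 of 11 tested in females and 9 of 11 in males, and none fell, beside 13.2% and 22.6% of all genes that rose. As the list was chosen with earlier results known, this contrast with the background is no independent evidence. The collagen gene Col1a1 averaged 334 ± 66.9 FPKM in bleomycin females and 31.0 ± 5.95 in sham females, and 413 ± 90.1 in bleomycin males and 126 ± 31.2 in sham males. It rose by 3.41 ± 0.234 on the log2 scale in females (adjusted p = 1.3e-08) and by 1.69 ± 0.218 in males (1.2e-05). Fn1, the gene of the matrix protein fibronectin, averaged 325 ± 31.2 FPKM in bleomycin females and 35.8 ± 5.05 in sham females, and 339 ± 57.8 in bleomycin males and 78.7 ± 12.98 in sham males. It rose by 3.16 ± 0.170 in females (adjusted p = 1.6e-09) and by 2.09 ± 0.163 in males (2.1e-07). The interaction passed for 4 of the 11 target genes, all higher, beside 5.69% of all tested genes (3.65% higher). These were Col1a1 (1.72 ± 0.303, adjusted p = 0.014), Col1a2 (1.07 ± 0.310, 0.049), Col3a1 (1.19, 0.023) and Fn1 (1.07 ± 0.222, 0.0195). With the mitochondrial covariate none of the 4 passed (adjusted p = 0.0899 to 0.231), nor did any without the libraries with transcripts of other organs (0.0641 to 0.187), and Col1a2 passed under 13 of 33 settings. The same 4 genes were lower in sham females than in sham males, Col1a1 with a log2 fold change of −2.02 (adjusted p = 5.2e-05) and Fn1 with −1.13 (0.0012). None of the 4 differed past the threshold between bleomycin females and bleomycin males, where Ccn2, the connective tissue growth factor gene, was the target gene that did (1.21, adjusted p = 0.026), a call lost without bleomycin male 2 or 5 or bleomycin female 2 or 3 and with the mitochondrial covariate (0.282).

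**Figure D5:**
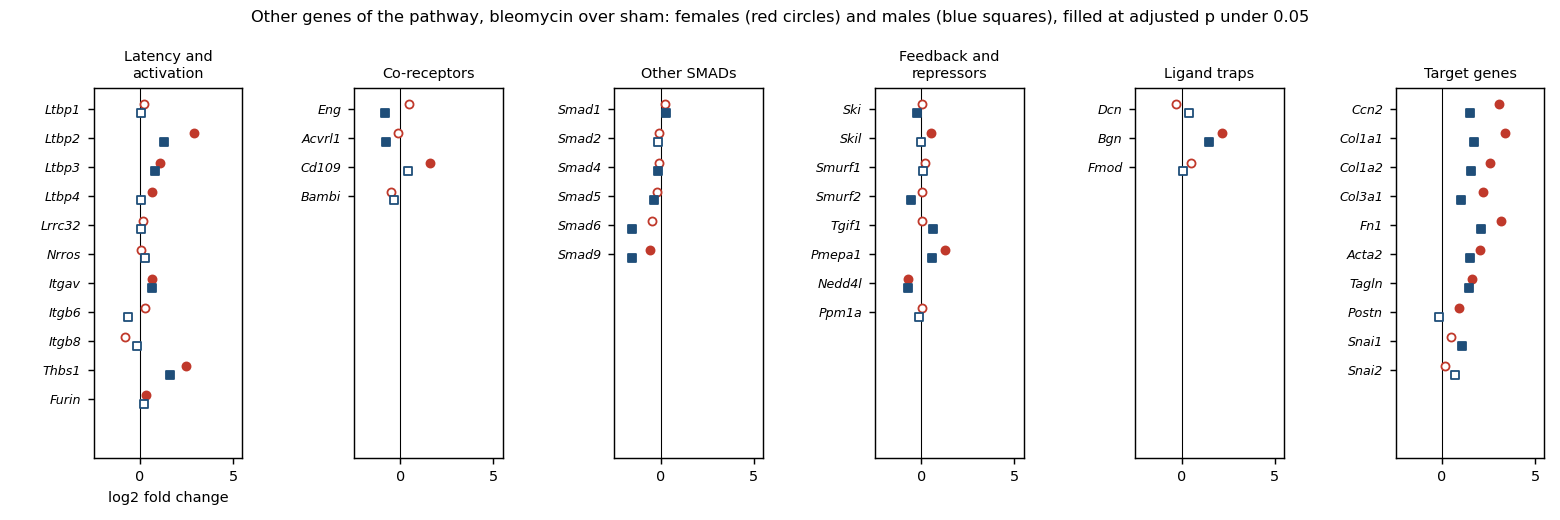
Log2 fold changes of bleomycin over sham for 42 further genes of the pathway in 6 lists, in females (circles) and males (squares), filled where the adjusted p was under 0.05. Target genes lie to the right in both sexes, apart from Postn in males, and Smad6, Smad9, Eng and Acvrl1 lie further left in males than in females.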

How the data were processed

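Per the labels' protocols, reads of 150 bases in pairs were trimmed with Cutadapt 1.10, mapped by HISAT2 2.0 to rat and quantified with StringTie 1.3.4. The deposited table holds 2 units per gene and library, whole-number counts and FPKM, both made by the authors. How StringTie output became counts, and whether strand was used, is not stated. Low counts cluster on multiples of 4 (a count of 4 occurs 7103 times, 3 occurs 3459 times and 5 occurs 2447 times), so 1 read pair seems to add about 4. The labels name Ensembl 112 and Rnor 6.0 together, which are not of 1 release, so coordinates are given as the table has them and the build is uncertain. No rat sequences were used here, and the paired miRNA libraries were not analysed here.

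Counts were tested with edgeR 4.0.16 in R 4.3.3 (TMM scaling, robust quasi-likelihood fit, 1 mean per group, all 20 libraries), with limma 3.58.1 and DESeq2 1.42.0 as alternatives. FPKM served for the filter, the levels and the shares. No 2 libraries held identical counts. The fit was also run on simulated counts with the same spread in every group and changes in bleomycin females alone. That run does not bear on the unequal spread of the groups here. Alternatives were other filters, scalings, tools and covariates, fits of the compared groups only, a replicate block, and leaving out libraries. The fit with 1 weight per group (limma-voom) was added after the spread of the groups was seen. Genes named are the 9 members, up to 4 per pathway list by the smallest p of the bleomycin contrasts, and the 5 most similar profiles of Tgfbi, Tgfb3 and Tgfbr2. Cd68 and the other markers are named for their lists, and Col3a1 and Ccn2 were named after their values were seen. The members and lists were chosen with earlier results of these data known. Cd4 and Foxj1 were not found under these symbols and were not analysed here. Of the target list, 1 gene is counted in its list but is not reported here.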

Additional observations from a re-analysis of the deposited data

Results flagged for a closer look

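The difference of response in Tgfbi was singled out because its interaction term passed the threshold, at −0.99 for females minus males (log2 scale, adjusted p = 0.045, edgeR).

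In 5 of 36 sets of 5 libraries (9 genes in 4 groups), 1 library stood apart from the other 4 by Dixon's criterion, which chance meets in about 1 of 20 such sets. Tgfbr1 was high in bleomycin female 1, at 20.6 FPKM where the other 4 lay between 13.1 and 15.1. Smad7 was low in the same library, at 15.7 FPKM where the other 4 lay between 22.6 and 25.1. Tgfbr2 was low in bleomycin female 5, at 136 FPKM with the others between 149.8 and 154, and high in sham male 1, at 131 FPKM with the others between 99.4 and 104. Tgfbr3 was low in sham female 2, at 20.8 FPKM with the others between 23.7 and 24.7.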

How the results depend on the processing

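Over 34 alternatives, Tgfb3 and Tgfbi in both sexes and Tgfb1, Tgfbr3 and Smad3 in males kept their direction and stayed past the threshold, and no member past the threshold changed sign. Of 126 calls of pathway and marker genes over the 5 contrasts, 1 changed sign under an alternative, the fat gene Adipoq between bleomycin females and bleomycin males. In the difference of response 8 of 43 tested pathway genes were past the threshold, beside 5.69% of all genes. These 8 became 0 with the mitochondrial covariate, 0 without libraries with organ transcripts, and 4 to 20 with 1 library left out (4 without bleomycin female 2, 20 without bleomycin male 4). In the difference between the female and male response, the reported fit called 1 member and 903 genes. Without a filter on low values it was 0 members and 522 genes, with a filter of FPKM 2 it was 2 members, and with limma on log2(FPKM + 1) 2 members. DESeq2 called 3 members and 2175 genes there, group weights 2 members and 1402 genes, the mitochondrial covariate 0 members and 0 genes, and the fit without libraries with organ transcripts 0 members and 27 genes. Between females and males in bleomycin lungs (4 members, 3239 genes), the fit of only the groups compared called 0 members and 29 genes, the mitochondrial covariate 0 members and 46 genes, the fit without organ libraries 906 genes and group weights 1714 genes. Between females and males in sham lungs (0 members, 83 genes), DESeq2 called 1 member and 325 genes, only the groups compared 315 genes, and group weights 1 member and 489 genes. For bleomycin against sham in females (4 members, 3431 genes), only the groups compared gave 6 members and 5381 genes. Group weights gave 6 members and 5854 genes there, and the mitochondrial covariate 2 members. For bleomycin against sham in males (7 members, 6645 genes), only the groups compared gave 5 members and 4463 genes. Group weights gave 5 members and 4978 genes there. The cause of these differences was not tested, and the mitochondrial covariate is partly confounded with the groups.

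Leaving out 1 library at a time gave 0 to 5 members and 321 to 3000 genes for the difference in response, with both highest values without bleomycin male 4. It gave 3 to 5 members and 2652 to 4284 genes in females, 5 to 7 members and 5867 to 7042 genes in males, and 3 to 6 members and 1929 to 4891 genes between females and males in bleomycin lungs. In sham lungs it gave 0 to 1 member and 37 to 143 genes. Values whose log2 sign changed were small. With the mitochondrial covariate, Tgfb2 and Tgfbr2 stood at −0.0382 and −0.0849 in the difference of response, and Tgfb2 and Tgfbr1 at −0.10 and 0.0543 between bleomycin females and bleomycin males. With 1 library left out, Tgfbr2 in males ran from −0.0515 to 0.23, Tgfb3 between bleomycin females and bleomycin males from −0.24 to 0.0094, and between sham females and sham males Tgfb1 from −0.0671 to 0.0026, Tgfb2 from −0.15 to 0.0074 and Smad3 from −0.11 to 0.0021. Scaling by upper quartiles put the share of higher calls at 50.5% in the difference of response (64.1% with TMM) and at 45.5% between bleomycin females and bleomycin males (57.2% with TMM). Scaling by library totals moved the median log2 fold change of all genes in males to 0.10, against 0.04 with TMM.

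The labels number replicates alike in all groups. Libraries of the same number correlated at a mean of 0.0534 (−0.137 to 0.428 over 30 pairs), against −0.0135 for different numbers, and 9 of 20 were closest to their own number, a hint from the data and not from the design. Not every same-number pair was over 0.1 and the labels name no shared litter or day, so the numbers were not taken to pair the animals. With the replicate number as a block, 5 members passed in females, 6 in males, 1 in the difference of response, 4 in bleomycin lungs and 0 in sham lungs, and 3507, 6676, 1041, 3225 and 81 genes did.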
